A study of Mus musculus with 18 samples.

Results

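The genes that drive G2 and mitosis were followed in regulatory T cells (Tregs) with and without Chd8, the gene of a chromatin remodeler of the CHD family. They comprised 41 genes, listed by name for their known roles in the last part of the cell cycle, out of 35865 genes that the RNA-seq table lists under a single name. All 41 passed the filter on low values that left 15240 genes for testing. The members fell into 7 role groups: kinases, cyclins and phosphatases (9 genes), the spindle checkpoint and anaphase (9), the centromere and kinetochore (7), the chromosomal passenger complex (4), spindle motors and microtubule proteins (4), the central spindle and cytokinesis (6), and mitotic chromosomes (2).

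RNA-seq was done on CD4+ YFP+ Tregs sorted from mouse spleens, and each genotype, WT and Chd8-/-, had 2 libraries from separate mice. The Chd8-/- mice carry CHD8 Flox/Flox with Foxp3 YFP-Cre, a Cre fused to YFP in the X-linked Foxp3 locus, so that floxed Chd8 is deleted in cells that express Foxp3. The labels name the WT genotype as CHD8 flox/flox with Foxp3 YFP-Cre/+, whereas the study describes its WT mice as Chd8+/+ with Foxp3 YFP-Cre. All 4 libraries carry the label of a Poly IC injection, and mice were sex-matched and 5 to 7 weeks old. The study names a male and a female mouse in each genotype for these libraries, which differs from the sex-linked genes measured here. Xist, the RNA of the inactive X chromosome, was at 500.2 to 843.3 TPM in all 4 libraries, and the Y-linked genes Ddx3y, Eif2s3y, Kdm5d and Uty were listed at 0 in all 4. The values are TPM, which set each gene's reads against its length and the library's total, and the depth behind them is unknown. From 19540 to 20984 genes were above 0 in a library.

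Entry into mitosis is driven by Cdk1 bound to B-type cyclins, and exit by the anaphase-promoting complex (APC/C), the ubiquitin ligase that destroys those cyclins. Between these steps kinetochores attach chromosomes to the spindle, the spindle checkpoint delays anaphase until every chromosome is attached, and the central spindle guides the cut between daughter cells. In cells outside the cycle most of these genes are held down by the DREAM complex, whose MuvB core binds a short promoter element called the cell cycle homology region, and in G2 they are activated by MuvB with B-Myb and FOXM1. The factor NF-Y, which binds CCAAT boxes, acts at many of the same promoters. A share of splenic Tregs divides at any time, and bulk RNA of such cells mixes dividing and resting cells. Fewer dividing cells and less RNA per dividing cell cannot be told apart in these data.

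The promoters of the members were searched for both elements. RefSeq promoter windows (GRCm38.p6), which run from 250 bases before to 50 after a gene's start site, were available for 34 of the 41 members. Those of Aurkb, Ccna2, Cdc25c, Incenp, Kif20a, Spc24 and Tpx2 were not analysed here. Shown are 8 windows from 110 bases before the start site, chosen for members known for a cell cycle homology region (Cdk1, Ccnb2, Plk1, Cdc20, Birc5) and for members whose Chd8-/- and WT libraries did not overlap (Ube2c, Kif2c, Top2a). Capitals mark the homology region letters TTTGAA or TTCGAA and the NF-Y letters CCAAT on either strand, so that TTCAAA and ATTGG are the same elements read on the opposite strand.
Cdk1: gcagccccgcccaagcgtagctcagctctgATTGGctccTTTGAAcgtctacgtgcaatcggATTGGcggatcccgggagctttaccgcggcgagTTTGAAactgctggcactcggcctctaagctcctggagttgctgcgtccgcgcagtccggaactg
Ccnb2: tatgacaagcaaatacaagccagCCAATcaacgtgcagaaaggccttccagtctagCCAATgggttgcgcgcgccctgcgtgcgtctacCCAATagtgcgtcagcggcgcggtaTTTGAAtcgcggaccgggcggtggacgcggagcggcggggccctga
Plk1: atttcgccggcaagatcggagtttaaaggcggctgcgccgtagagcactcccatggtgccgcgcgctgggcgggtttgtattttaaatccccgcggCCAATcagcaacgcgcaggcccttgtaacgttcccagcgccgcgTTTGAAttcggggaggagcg
Cdc20: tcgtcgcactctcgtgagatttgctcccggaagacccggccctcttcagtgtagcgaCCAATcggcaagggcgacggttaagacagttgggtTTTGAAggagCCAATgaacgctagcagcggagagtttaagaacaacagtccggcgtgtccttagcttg
Birc5: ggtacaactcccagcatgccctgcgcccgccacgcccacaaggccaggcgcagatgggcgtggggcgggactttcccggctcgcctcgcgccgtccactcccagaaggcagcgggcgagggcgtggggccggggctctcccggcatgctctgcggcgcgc
Ube2c: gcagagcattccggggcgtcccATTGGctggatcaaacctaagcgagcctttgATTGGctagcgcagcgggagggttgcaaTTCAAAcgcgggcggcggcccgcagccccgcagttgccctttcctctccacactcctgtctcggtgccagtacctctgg
Kif2c: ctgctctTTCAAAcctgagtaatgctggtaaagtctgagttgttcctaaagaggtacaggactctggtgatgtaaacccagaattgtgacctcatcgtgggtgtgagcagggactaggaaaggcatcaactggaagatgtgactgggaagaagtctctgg
Top2a: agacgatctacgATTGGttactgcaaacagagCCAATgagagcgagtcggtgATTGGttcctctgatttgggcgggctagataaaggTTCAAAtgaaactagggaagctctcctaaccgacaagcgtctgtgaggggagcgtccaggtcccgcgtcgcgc

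These stretches lie at chr10:69352863-69353022 (minus strand), chr9:70421505-70421664 (minus strand), chr7:122159325-122159484 (plus strand), chr4:118437294-118437453 (minus strand), chr11:117849127-117849286 (plus strand), chr2:164769819-164769978 (plus strand), chr4:117178723-117178882 (minus strand) and chr11:99024140-99024299 (minus strand). Ccnb2, the cyclin B2 gene, had 3 evenly spaced CCAAT boxes ahead of a homology region that began 5 bases past the start site. In Plk1 a CCAAT box lay 45 bases ahead of a homology region that began 31 bases past the start site. Ube2c had its homology region 29 bases before the start site on the opposite strand, with 2 CCAAT boxes ahead of it in the stretch shown. No such letters were found in the window of Birc5, a statement about these letters in this window alone. The tabulated Kif2c window held a homology region on the opposite strand, 103 bases before the listed start, and no CCAAT box. It lay inside the RefSeq span of the gene, chr4:117159633-117182624.

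The letters TTTGAA were found on either strand in 25 of 34 member windows (73.5%), against 20.2% of all 27025 genes with a window and 15.4% of the 10439 of them tested in RNA-seq. When the search was kept to positions from 60 bases before the start site onward, 23 members (67.6%) held the letters, against 6.36% of all genes. CCAAT on either strand was found in 26 member windows (76.5%) and in 41.1% of all genes. Both occurred together in 22 members (64.7%) and in 7.97% of all genes. The variant TTCGAA was found in 4 members (11.8%) and in 1.8% of all genes. Of the 3 letter runs searched for E2F, each was in 4 or fewer members, with TTCCCGC in 1 member (2.94%; 5.29% of all genes), TTGGCGC in 4 (11.8%; 2.85%) and TTTGGCG in 0 (0%; 1.77%). Cdk1, Ccnb1, Ect2 and Mki67 were the 4 members with TTGGCGC, named after their values were seen. The runs TTGGCGC and TTTGGCG overlap by 6 letters. Windows of the same gene or of neighbouring starts share sequence, and a match describes the letters, not a bound site.

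**Figure D1:**
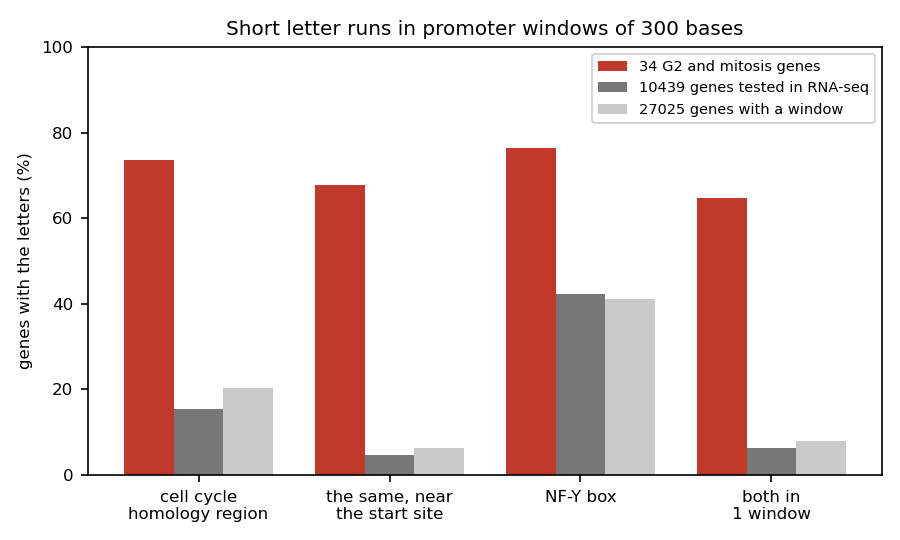
Share of genes (%, vertical axis from 0) whose RefSeq promoter window of 300 bases holds the cell cycle homology region letters, the same from 60 bases before the start site onward, CCAAT, or the homology region and CCAAT together, for the members, the genes tested in RNA-seq and all genes with a window. The member bars stand at 73.5%, 67.6%, 76.5% and 64.7%, and each is the highest of its group.

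Chd8 was at 14.9 and 11.4 TPM in the 2 Chd8-/- libraries and at 24.7 and 27.6 TPM in the 2 WT libraries. Both Chd8-/- libraries were below both WT libraries, and transcript remained in both. The log2 fold change, Chd8-/- against WT on log2(TPM + 1) here and throughout, was -0.95 ± 0.29 (SE), with an adjusted p of 0.455 (limma, Benjamini-Hochberg over 15240 genes). The Treg markers Foxp3, Il2ra, Ctla4, Ikzf2 and Tnfrsf18 and the more general T cell genes Cd4 and Cd3e were present in every library. Together they summed to 3342.2 to 4005.7 TPM, with Cd3e alone at 1267.2 to 1547.9 TPM. The library of Chd8-/- replicate 2 stood apart in markers of other cells. It was the highest of the 4 for 8 of 9 myeloid and 9 of 10 erythroid markers. Its myeloid markers summed to 1664.7 TPM, against 35 in Chd8-/- replicate 1 and 219.5 and 229.6 in WT. Its erythroid markers, hemoglobin genes among them, summed to 2106.4 TPM, against 22.8 in Chd8-/- replicate 1 and 407.5 and 372.5 in WT. B cell and plasma cell markers ranged from 100.3 to 405.2 TPM and were highest in sum in Chd8-/- replicate 2, as were 5 of the 8. CD8 and NK cell markers ranged from 14.1 to 60.4 TPM, and although their sum was highest in Chd8-/- replicate 2, only 2 of the 7 were, and 4 were highest in WT replicate 1. Of the erythroid markers, Hbb-bs, Hbb-bt, Hba-a2 and Klf1 were at 0 in Chd8-/- replicate 1, and none was at 0 in the other 3 libraries. The B cell gene Pax5 and the myeloid genes Adgre1, S100a9 and Fcer1g were also at 0 in Chd8-/- replicate 1. The part of these cells in the results below was not tested, and each list median is given with and without Chd8-/- replicate 2. The median log2 fold change over all genes tested was -0.15 with that library and -0.041 without it.

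**Figure D2:**
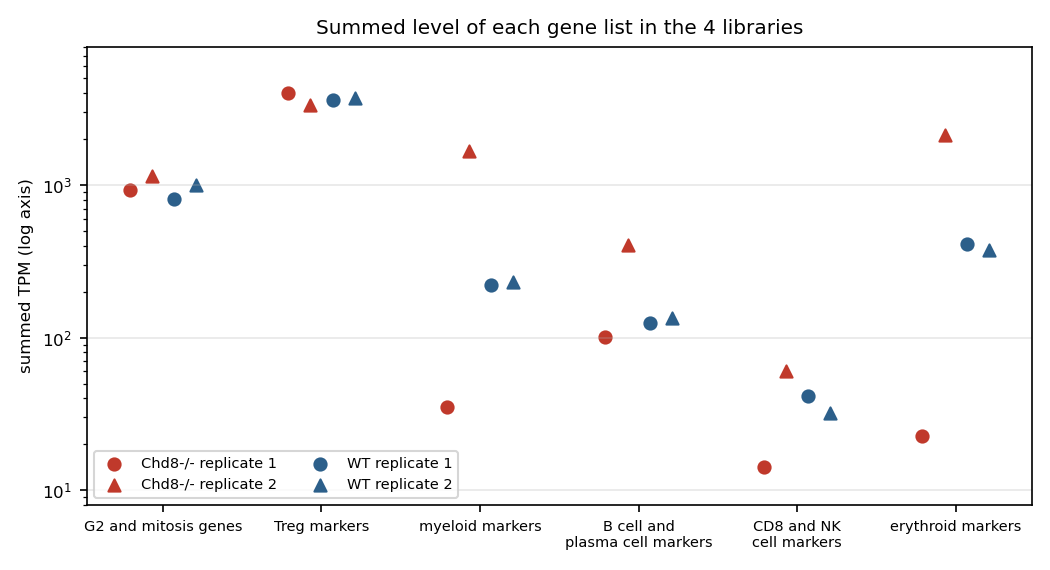
Summed TPM (log axis) of the 41 G2 and mitosis genes and of 5 marker lists, 1 point per library, red for Chd8-/- and blue for WT, circles for replicate 1 and triangles for replicate 2. The member sums lie between 809.8 and 1151.6 TPM, and the myeloid and erythroid sums are highest in Chd8-/- replicate 2 and lowest in Chd8-/- replicate 1.

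The question was how the program of G2 and mitosis stood in Tregs without Chd8. No member changed at an adjusted p of 0.05 (0% of the 15240 genes passed), and the smallest adjusted p among the members was 0.455, that of Ccnb2. In sum the members took up 924 and 1151.6 TPM in the Chd8-/- libraries and 809.8 and 1001.7 TPM in WT, with each genotype's range overlapping the other's. Of the 41 members, 25 had a log2 fold change above 0 and 16 below, while 38.5% of all genes tested were above 0 and 61.5% below. The median over the members was 0.13, against -0.15 over all genes. That median was 0.039 without Chd8-/- replicate 2, 0.12 without Chd8-/- replicate 1, 0.0083 without WT replicate 1 and 0.32 without WT replicate 2. In the same order the median over all genes was -0.041, -0.25, -0.20 and -0.12, below that of the members each time. Without Chd8-/- replicate 2 the members stood at 23 above 0 and 18 below, and without WT replicate 2 at 32 and 9. Genes above and below 0 were not counted over all genes in these settings. Quantile normalization, which moved the median of all genes from -0.15 to 0.0016, left 32 members above 0 and 9 below, with a median of 0.26. Under that normalization 7635 of the 15240 genes tested were above 0 and 7605 below.

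Large differences were few. A log2 fold change of 1 or more was seen for 0 members (5.12% of all genes), and one of -1 or less for 1 member, Kif2c (11.6% of all genes). At an unadjusted p of 0.05 there were 0 higher members (3.90% of all genes) and 1 lower member, Ccnb2 (6.30%). Both Chd8-/- libraries were above both WT libraries for 6 members, Cdk1, Plk4, Bub1b, Ube2c, Tpx2 and Top2a, which is 14.6% of the members and close to the 14.8% of all genes. They were below both for 4 members, Ccnb2, Plk1, Kif2c and Prc1, or 9.76%, where all genes had 27.8%. In the other 31 members the genotypes overlapped. Cdk1, Plk1, Plk4 and Bub1b, like the members described below that are not among the 4 most abundant of their role, were picked out after their values were seen.

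**Figure D3:**
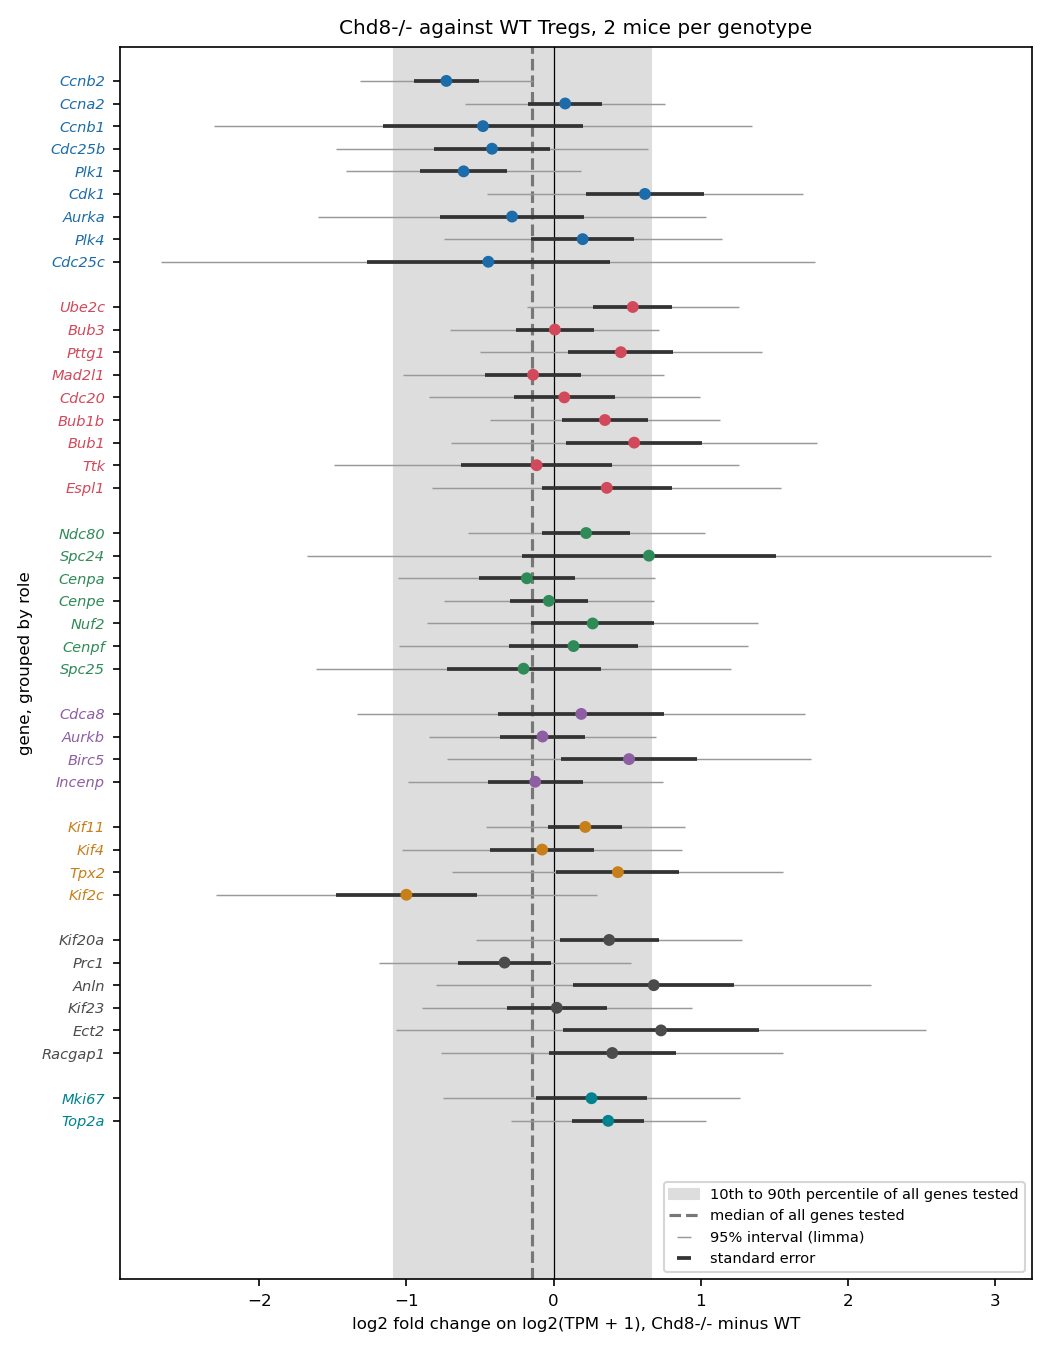
Log2 fold change on log2(TPM + 1), Chd8-/- minus WT (horizontal axis), for the 41 members grouped by role and ordered by mean TPM within a role, with the SE as thick and the 95% interval of limma as thin lines. The grey band spans the 10th to 90th percentile of the 15240 genes tested (-1.09 to 0.66) and the dashed line is their median of -0.15, and the interval of Ccnb2 alone among the members lies wholly on 1 side of 0.

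Among the kinases, cyclins and phosphatases that start mitosis, Cdk1 and its B-type cyclin partners stood on opposite sides of 0. Ccnb2 was at 28 and 29.6 TPM in Chd8-/- against 49.8 and 47 TPM in WT. Its libraries did not overlap, and mice of the same genotype differed little. The log2 fold change was -0.73 ± 0.22 (SE), or 0.603-fold, with an unadjusted limma p of 0.0258 and a 95% interval of -1.32 to -0.14. Ccnb1, the cyclin B1 gene, was at 14.2 and 24.7 TPM in Chd8-/- against 14.3 and 48.7 TPM in WT (-0.48 ± 0.68). WT replicate 2 alone set that value apart, and without it the log2 fold change was 0.37. Plk1, the kinase that promotes mitotic entry and spindle assembly, was at 11.5 and 14.7 TPM in Chd8-/- against 21.8 and 19.1 TPM in WT. Here too the genotypes did not overlap, with a log2 fold change of -0.61 ± 0.30 and an adjusted p of 0.566.

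Cdk1 itself was at 17.8 and 22.3 TPM in Chd8-/- against 9.3 and 17 TPM in WT, with a log2 fold change of 0.62 ± 0.40 and an adjusted p of 0.645. Its Chd8-/- libraries were the 2 highest, but WT replicate 2 lay close below them, and the value was 0.22 without WT replicate 1 and 0.47 without Chd8-/- replicate 2. Ccna2, the cyclin A2 gene that acts in S phase and G2, was at 36.1 and 38.4 TPM in Chd8-/- against 30.9 and 40.1 TPM in WT (0.078 ± 0.25). Cdc25b, a phosphatase that activates Cdk1, was at 16.7 and 15 TPM in Chd8-/- against 15.7 and 29.3 TPM in WT (-0.42 ± 0.39). For both genes the WT libraries spanned the Chd8-/- values or nearly so. The remaining members of this role, Aurka, Cdc25c and the centriole kinase Plk4, had log2 fold changes of -0.44 to 0.20. Over the 9 genes the median was -0.42, with 3 above 0 and 6 below. It was -0.35 without Chd8-/- replicate 2 and 0.26 without WT replicate 2, so that a single WT library decided its sign. Quantile normalization gave -0.16.

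In the spindle checkpoint and anaphase group 7 of 9 genes were above 0, with a median of 0.35 (0.16 without Chd8-/- replicate 2). Ube2c, the ubiquitin-conjugating enzyme that works with the APC/C, was the most abundant member. It was at 164.4 and 248.1 TPM in Chd8-/- against 129.5 and 148.8 TPM in WT. The genotypes did not overlap, and the log2 fold change was 0.54 ± 0.27, or 1.45-fold, with an adjusted p of 0.572. It was 0.24 without Chd8-/- replicate 2 and 0.83 without Chd8-/- replicate 1. Pttg1, or securin, which holds separase inactive until anaphase and was highest in Chd8-/- replicate 1, was at 59.5 and 35 TPM in Chd8-/- against 28.8 and 37.8 TPM in WT (0.46 ± 0.36). Bub3, part of the checkpoint complex at kinetochores, was at 58.8 and 42.1 TPM in Chd8-/- against 46.8 and 52.3 TPM in WT (0.0083 ± 0.26). Mad2l1, which holds back the APC/C activator Cdc20, was at 19.4 and 13.5 TPM in Chd8-/- against 20 and 16.1 TPM in WT (-0.14 ± 0.33). In these 3 genes the mice of a genotype overlapped those of the other.

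The checkpoint kinases were lower in level. Bub1b was at 14.2 and 16.2 TPM in Chd8-/- against 11.9 and 11.5 TPM in WT, without overlap, with a log2 fold change of 0.35 ± 0.29. Bub1 was at 4.7 and 9 TPM in Chd8-/- against 4.8 and 3.6 TPM in WT (0.55 ± 0.46), so that its difference lay in Chd8-/- replicate 2, without which it was 0.14. Cdc20, Ttk and Espl1, the gene of separase, had log2 fold changes of -0.12 to 0.36.

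The centromere and kinetochore genes were divided, with 4 of 7 above 0, a median of 0.13 (-0.096 without Chd8-/- replicate 2) and no gene without overlap. The median was also below 0 without Chd8-/- replicate 1 (-0.071) and without WT replicate 1 (-0.095), and was 0.32 without WT replicate 2. Ndc80, the microtubule-binding subunit of the kinetochore, was at 58.3 and 37.3 TPM in Chd8-/- against 40.1 and 39.7 TPM in WT (0.22 ± 0.30). Spc24, a partner of Ndc80 in the same complex, was at 10.3 and 47.6 TPM in Chd8-/- against 8.9 and 21.6 TPM in WT (0.65 ± 0.86). The value of Spc24 rested on Chd8-/- replicate 2 and was -0.40 without it. Cenpa, the centromeric histone H3 variant, was at 18 and 17.5 TPM in Chd8-/- against 25 and 16.4 TPM in WT (-0.18 ± 0.32). Cenpe, the kinesin that moves chromosomes to the spindle equator, was at 18.6 and 17.6 TPM in Chd8-/- against 17.7 and 19.4 TPM in WT (-0.033 ± 0.26). Cenpe had the smallest SE of this group, with a 95% interval of -0.75 to 0.68. Nuf2, Cenpf and Spc25 had log2 fold changes of -0.20 to 0.27.

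The chromosomal passenger complex, which corrects wrong attachments at centromeres and moves to the midzone in anaphase, had 2 genes above and 2 below 0, with a median of 0.056. Its sign turned with the libraries, at -0.085 without Chd8-/- replicate 2, -0.24 without WT replicate 1 and 0.41 without WT replicate 2. The kinase subunit Aurkb was at 21.6 and 17.6 TPM in Chd8-/- against 18.7 and 22.7 TPM in WT (-0.076 ± 0.29). Birc5, or survivin, was at 21.3 and 23.3 TPM in Chd8-/- against 10.1 and 23 TPM in WT (0.51 ± 0.46). Its difference lay in WT replicate 1, without which it was -0.044. The scaffold Incenp was at 9.9 and 11.7 TPM in Chd8-/- against 10.6 and 13.2 TPM in WT (-0.13 ± 0.32). Cdca8, or borealin, was at 28.8 and 59.5 TPM in Chd8-/- against 24 and 54.6 TPM in WT (0.19 ± 0.57). In Cdca8 the second replicate of each genotype had the higher level (-0.32 without Chd8-/- replicate 2), and the gap between mice exceeded that between genotypes.

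Of the spindle motors and microtubule proteins, 2 were above and 2 below 0, with a median of 0.068 that was -0.064 without Chd8-/- replicate 2 and -0.079 without WT replicate 1. Kif2c, a kinesin that takes microtubules apart at centromeres, was at 1 and 0.2 TPM in Chd8-/- against 2.1 TPM in each WT library. The Chd8-/- libraries were both lower, at levels near the step of 0.1 in which TPM was given. Its log2 fold change was -1.0 ± 0.48, with a 95% interval of -2.3 to 0.29 and an adjusted p of 0.562, and it was -0.63 without Chd8-/- replicate 2. Kif11, the motor that pushes spindle poles apart, was at 71 and 84.4 TPM in Chd8-/- against 57.2 and 77.4 TPM in WT (0.22 ± 0.25). Tpx2, which activates Aurka on the spindle, was at 3.9 and 6.4 TPM in Chd8-/- against 3.4 and 3.5 TPM in WT (0.44 ± 0.42), a non-overlapping but small gap for Chd8-/- replicate 1, at 0.14 without replicate 2. Kif4, a chromosome-bound kinesin, was at 5.9 and 7.4 TPM in Chd8-/- against 6.6 and 7.5 TPM in WT (-0.078 ± 0.35). It has a near copy listed as Kif4-ps, at 0 in both Chd8-/- libraries and 0.2 TPM in both WT libraries, and reads may be shared between them.

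In the central spindle and cytokinesis group 5 of 6 genes were above 0, with a median of 0.39 that was 0.075 without Chd8-/- replicate 2. Kif20a, a kinesin of the central spindle, was at 16.8 and 23.9 TPM in Chd8-/- against 13.2 and 17.5 TPM in WT (0.38 ± 0.34). Prc1, which bundles the microtubules of the midzone, was at 8.6 and 8.7 TPM in Chd8-/- against 10.2 and 12.2 TPM in WT (-0.33 ± 0.32). Prc1 was the member of the group whose genotypes did not overlap, and it was lower in Chd8-/-. Anln, or anillin, a scaffold of the cleavage furrow, was at 7 and 15.6 TPM in Chd8-/- against 4.5 and 8.4 TPM in WT (0.68 ± 0.55). Kif23, a motor of centralspindlin, was at 7 and 6.8 TPM in Chd8-/- against 7.3 and 6.3 TPM in WT (0.021 ± 0.34). Ect2, the activator of RhoA at the furrow, had the largest log2 fold change above 0 of all members, 0.73 ± 0.67. Its levels were 3.2 and 12.2 TPM in Chd8-/- and 3.2 and 3.8 TPM in WT, so that 1 library stood apart, and the value was -0.096 without Chd8-/- replicate 2. Racgap1, the partner of Kif23 in centralspindlin, had a log2 fold change of 0.40 ± 0.43. Without Chd8-/- replicate 2 the values of Kif20a, Anln and Racgap1 were 0.14, 0.15 and 0.11.

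Mki67 and Top2a, whose products coat and untangle mitotic chromosomes and which are in wide use as proliferation markers, were above 0, with a median of 0.31 that was -0.017 without Chd8-/- replicate 2. Mki67 was at 58.2 and 114.2 TPM in Chd8-/- against 67.6 and 68.6 TPM in WT (0.26 ± 0.38). Chd8-/- replicate 1 was the lowest of the 4 libraries and replicate 2 the highest, and the value was -0.22 without replicate 2. Top2a was at 51.7 and 66.8 TPM in Chd8-/- against 42 and 48.7 TPM in WT, without overlap (0.37 ± 0.25, adjusted p of 0.656), and its value was 0.19 without Chd8-/- replicate 2.

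**Figure D4:**
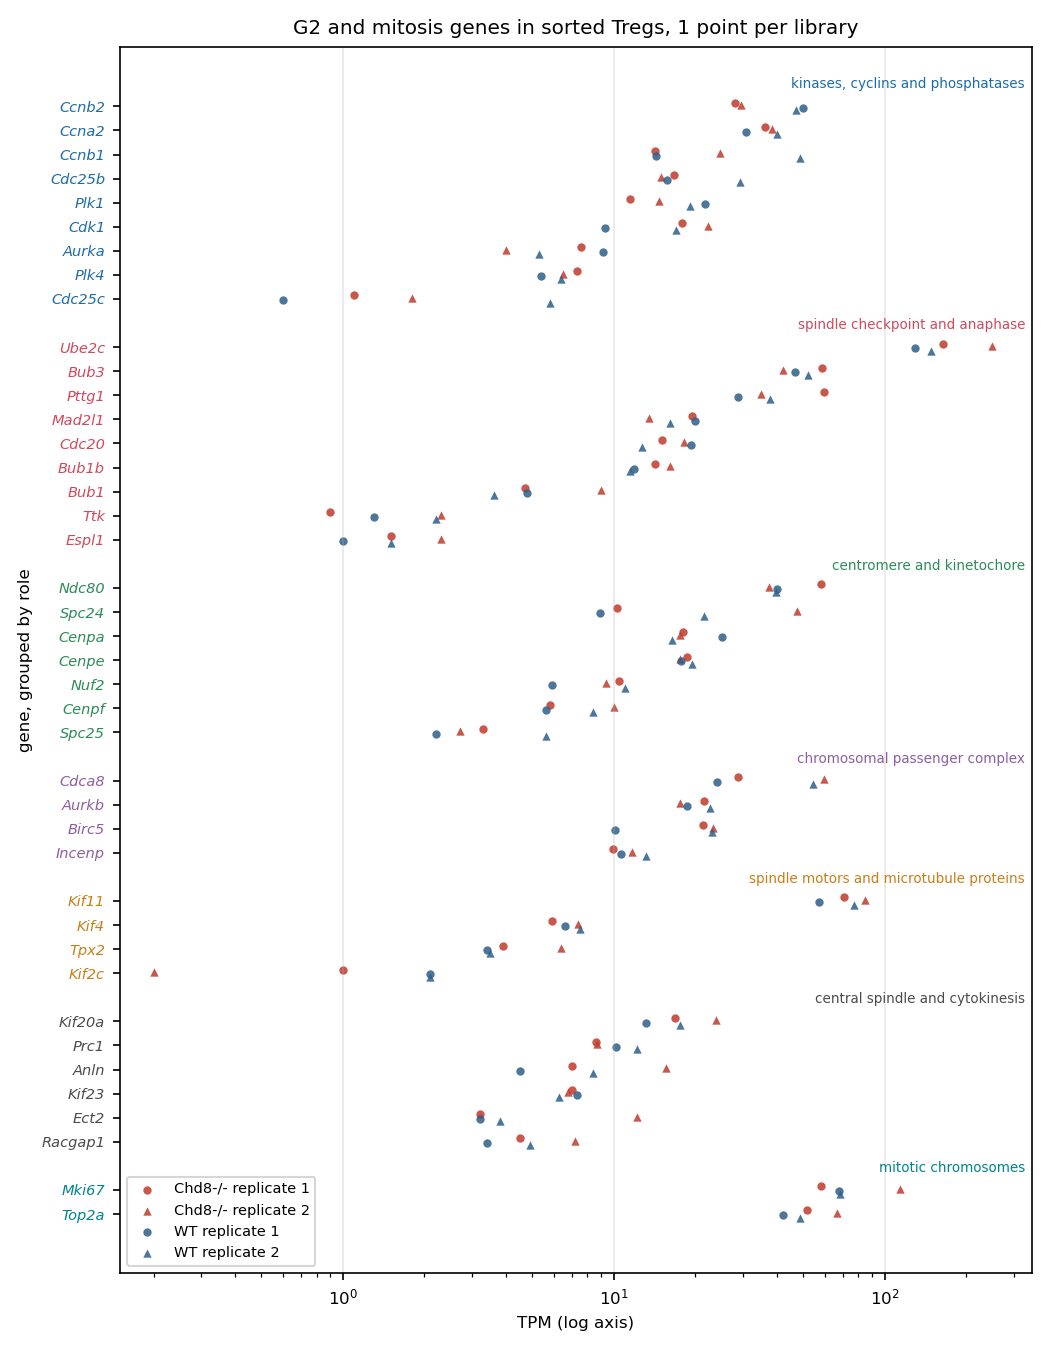
TPM (log axis) of the 41 members in the 4 libraries, red for Chd8-/- and blue for WT, circles for replicate 1 and triangles for replicate 2, grouped by role and ordered by mean TPM. Ube2c is the most abundant at 129.5 to 248.1 TPM, Kif2c has the lowest value (0.2 TPM), and the red and blue points overlap for 31 of the 41 genes.

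Differences between mice of 1 genotype were set beside the difference between genotypes. In 28 of 41 members the 2 Chd8-/- mice differed from each other by more than the genotype means did, and in 27 the 2 WT mice did. Over all 15240 genes tested these counts were 9200 and 6770. For 35 members (85.4%) this held for at least 1 of the genotypes, compared with 70.3% of all genes. The median absolute log2 difference was 0.40 between the Chd8-/- mice, 0.33 between the WT mice and 0.33 between genotypes. These are not like measures, because the first 2 set single libraries apart and the last sets means of 2 libraries apart. A difference of single libraries varies more than one of means, so the counts favour a larger gap between mice even without any genotype effect. The second replicate was the higher in 27 members in Chd8-/- and in 30 in WT, and in 22 members in both. Over all 15240 genes it was the higher in 5669 in Chd8-/-, in 8631 in WT and in 3146 in both. Among all 4 libraries, Chd8-/- replicate 2 was the highest for 18 members and WT replicate 1 the lowest for 19. Chd8-/- replicate 1, the library with the lowest sum in each marker list of other cells, was the highest for 4 and the lowest for 9. These counts of highest and lowest libraries have no count over all genes beside them. An exact permutation test of 2 mice against 2 cannot go below p = 0.33, so no such test was made for a single gene.

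**Figure D5:**
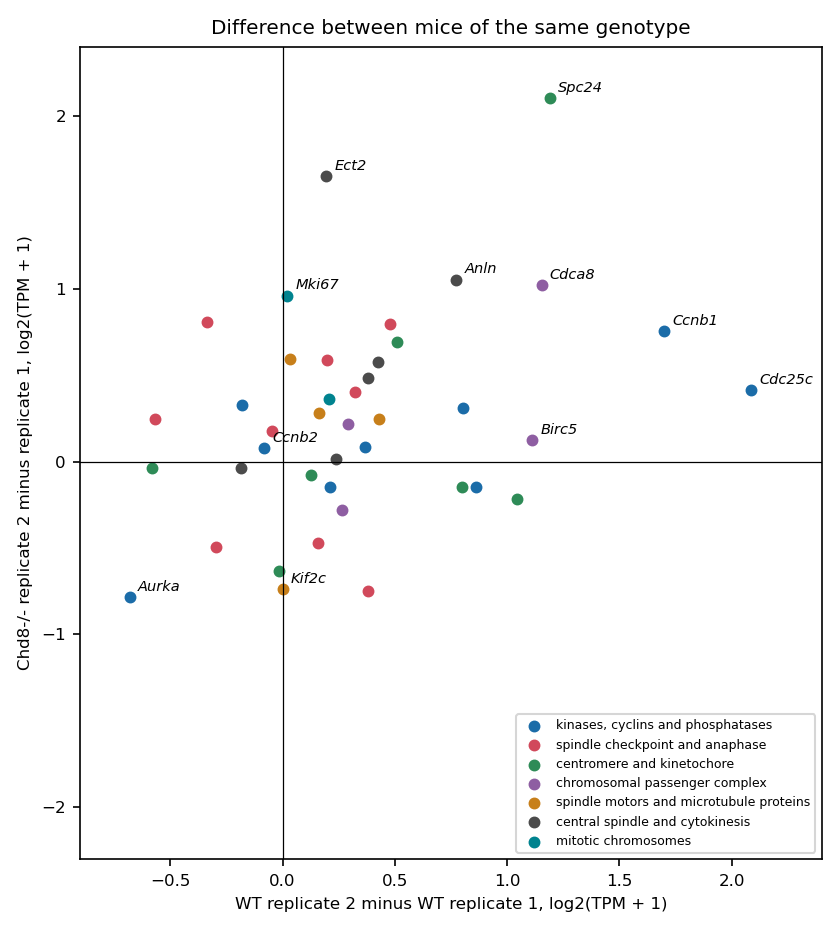
Difference between mice of the same genotype for each of the 41 members, on log2(TPM + 1), WT replicate 2 minus replicate 1 (horizontal axis) against Chd8-/- replicate 2 minus replicate 1 (vertical axis), coloured by role. In 22 members both differences are above 0 (3146 of all 15240 genes), Spc24 and Ect2 are farthest apart in Chd8-/- (2.10 and 1.65), and Cdc25c and Ccnb1 in WT (2.09 and 1.70).

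Log2 fold changes were also set beside the promoter layout, as a description. The 25 members with TTTGAA had a median log2 fold change of 0.13, with 16 of them above 0, and the members with a window but without those letters had a median of 0.20. The 22 members that also held CCAAT had a median of 0.10, with 14 above 0. Of the 10 members without overlap, 7 held both kinds of letters, Ccnb2, Plk1 and Prc1 below WT and Cdk1, Bub1b, Ube2c and Top2a above it. Kif2c held TTTGAA without CCAAT, Plk4 held neither, and Tpx2 had no window.

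The rest of the mitotic machinery had a median nearer to that of all genes. Of 84 further genes in 4 lists, 34 were above 0 and 50 below, with a median of -0.086. Under quantile normalization 51 were above and 33 below, with a median of 0.088, where all genes had 7635 above and 7605 below. Both Chd8-/- libraries were above both WT in 15 (17.9%, where all genes had 14.8%) and below in 12 (14.3%, where all genes had 27.8%). The median was -0.0020 without Chd8-/- replicate 2. None passed at an adjusted p of 0.05, and 1, Anapc5, was lower at an unadjusted limma p under 0.05 (1.19%, where all genes had 6.30%). Anapc5, a subunit of the APC/C, was at 7.4 and 12.1 TPM in Chd8-/- against 20.8 and 23.7 TPM in WT, without overlap (-1.15 ± 0.36, adjusted p of 0.456). It had the largest size of the 15 genes in the APC/C list, which holds subunits and the activator Fzr1. Anapc2 (-0.90 ± 0.69) and Anapc10 (-0.45 ± 0.60) followed. Without Chd8-/- replicate 2 these were -1.47 for Anapc5, 0.022 for Anapc2 and 0.23 for Anapc10. The median of the APC/C list was -0.12 (-0.056 under quantile normalization and -0.012 without Chd8-/- replicate 2). Condensin and cohesin genes, which compact and tie sister chromosomes, were below 0 in 15 of 19, with a median of -0.11, but in 9 of 19, with a median of 0.0038, under quantile normalization, and the median was -0.0055 without Chd8-/- replicate 2. The largest of these were Cdca5 (-0.46 ± 0.50, and 0.12 without WT replicate 2), Ncapg (-0.45 ± 0.51, and 0.11 without Chd8-/- replicate 2) and Smc4. Smc4, a condensin subunit, was at 364.4 and 312.5 TPM in Chd8-/- against 456.2 and 451.3 TPM in WT, without overlap (-0.43 ± 0.17, adjusted p of 0.501). Smc2, another condensin subunit and next in size, went the other way, and was named after its values were seen. It was at 54.4 and 48.6 TPM in Chd8-/- against 40.4 and 36.9 TPM in WT, also without overlap (0.40 ± 0.22, adjusted p of 0.593).

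A further 36 spindle and kinetochore genes had a median of 0.048 (0.27 under quantile normalization, 0.089 without Chd8-/- replicate 2 and -0.079 without WT replicate 1), and the largest were Cenpm (1.28 ± 0.57), Zwilch (1.13 ± 0.61) and Dlgap5 (0.96 ± 0.66). Dlgap5, a spindle protein, was at 7.6 and 25.9 TPM in Chd8-/- against 5.6 and 8.2 TPM in WT, highest again in Chd8-/- replicate 2. Cenpm was at 2.7 and 4.6 TPM in Chd8-/- against 1.7 and 0.3 TPM in WT, low levels without overlap. Zwilch, at 7.4 and 12.7 TPM in Chd8-/- against 2.1 and 6.7 TPM in WT, did not overlap either, whereas Dlgap5 did. Without Chd8-/- replicate 2 Cenpm was at 0.98, Zwilch at 0.78 and Dlgap5 at 0.14. The 14 mitotic regulators had a median of -0.17 (0.081 under quantile normalization and 0.028 without Chd8-/- replicate 2), led in size by Gtse1 (1.58 ± 0.64), Pbk (1.47 ± 0.97) and Cks1b (-1.26 ± 0.58). Cks1b, a small partner of Cdk1, was at 55.6 and 19.6 TPM in Chd8-/- against 64.3 and 101.1 TPM in WT, without overlap. Gtse1 was at 6.1 and 18.1 TPM in Chd8-/- against 2.1 and 3.9 TPM in WT, also without overlap, and the genotypes overlapped for Pbk. Without Chd8-/- replicate 2 the log2 fold changes were 0.87 for Gtse1, 0.37 for Pbk and -0.53 for Cks1b.

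Of 15 genes for the DREAM complex, MuvB, B-Myb, FOXM1 and E2F factors, 7 were above 0 and 8 below, with a median of -0.063 that was 0.20 without Chd8-/- replicate 2 and -0.29 without Chd8-/- replicate 1. Quantile normalization gave 0.26. E2f4, the E2F of the DREAM complex, was at 62.6 and 44.5 TPM in Chd8-/- against 103.2 and 84.6 TPM in WT. Both Chd8-/- libraries were lower (-0.81 ± 0.27, unadjusted limma p of 0.0347, adjusted p of 0.467). Lin9, a MuvB subunit, was at 10.4 and 1.2 TPM in Chd8-/- against 7.8 and 9.1 TPM in WT (-0.91 ± 0.88), with Chd8-/- replicate 2 far below the other 3 libraries, and 0.27 without it. E2f1, an activating E2F, was at 11.6 and 14.7 TPM in Chd8-/- against 3.9 and 12.9 TPM in WT (0.77 ± 0.61), and without WT replicate 1 its value was 0.017.

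DNA replication genes, which act in S phase ahead of the members, gave other counts. Of 35 genes, 26 were above 0 and 9 below, with a median of 0.26. In 17 (48.6%, where all genes had 14.8%) both Chd8-/- libraries were above both WT, and in 1 (2.86%, where all genes had 27.8%) below. The median was 0.30 without Chd8-/- replicate 2. No gene passed at an adjusted p of 0.05. Mcm3 and Pcna were higher at an unadjusted limma p under 0.05 (5.71%, where all genes had 3.90%). Mcm3, a subunit of the replicative helicase, was at 153.8 and 167.5 TPM in Chd8-/- against 69.9 and 108.3 TPM in WT (0.88 ± 0.28, adjusted p of 0.460). Pcna, the sliding clamp of DNA polymerases, was at 570.8 and 523.6 TPM in Chd8-/- against 420.7 and 397.3 TPM in WT (0.42 ± 0.15, adjusted p of 0.487). In size the list was led by Gins1 (-1.68 ± 0.71), Gmnn (-1.61 ± 1.09) and Gins2 (1.14 ± 0.51). Without Chd8-/- replicate 2 these were -0.77, -0.075 and 0.46. Mcm3 and Pcna were at 0.81 and 0.48 without it. Whether the replication and mitosis lists differ was not tested.

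The gene of the cyclin-dependent kinase inhibitor p21, Cdkn1a, was at 190.7 and 150.1 TPM in Chd8-/- against 0.2 and 0.3 TPM in WT. Beside its log2 fold change of 7.09 ± 0.31 (adjusted p of 0.0807), those of the members lay between -1.0 and 0.73.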

How the data were processed

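RNA-seq of sorted Tregs was analysed in 4 libraries, grouped by their labels into 2 Chd8-/- and 2 WT mice. The deposited TPM values were made by the authors with Trim Galore 0.4.2, cutadapt 1.9.1, STAR 2.6.1e on mm10, removal of duplicates with sambamba and featureCounts 1.6.2 on RefSeq genes, and are given in steps of 0.1. TPM keeps no depth, and removal of duplicates can lower abundant genes. Of 35869 entries, 4 under repeated names were left out. Values were taken as log2(TPM + 1), which understates the change of low genes, for genes with at least 1 TPM in 2 or more libraries, and the genotypes were compared in R 4.3.3 by a linear model of limma 3.58.1 with a trended prior, two-sided, and Benjamini-Hochberg adjustment over 15240 genes. Calls used an adjusted p of 0.05. The fit was tested on simulated data.

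Genes named were the 4 most abundant of each role, any other member with an unadjusted p under 0.05 or a log2 fold change past 1 in either direction, and the 3 largest of each other list. The members and lists were chosen with earlier results of these data known. Motifs were searched in RefSeq promoter windows of GRCm38.p6, the build of mm10. Alternatives changed the pseudocount, the filter, the normalization, the block and the libraries. The ATAC-seq and ChIP-seq tables were not used, because their peaks are in mm39 and no annotation of that build was used here.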

Additional observations from a re-analysis of the deposited data

How the results depend on the processing

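With 2 mice per genotype and no depth, differences of the size seen among the members were not called, and limits of 1 library bear on most values. No member passed an adjusted p of 0.05 under any of the 11 alternatives run on the RNA values, with smallest adjusted p-values of the members from 0.210 to 0.971. Quantile normalization, which moved the median of all genes from -0.15 to 0.0016, gave 9 members below 0 (7605 of all 15240 genes). In 16 members both Chd8-/- libraries were then above both WT. That count has none over all genes under this normalization beside it, so it is not read as a result about the members. The medians were 0.26 (members), 0.088 (further mitosis genes), 0.26 (DREAM, MuvB and FOXM1 list) and 0.35 (DNA replication), with 0 members at -1 or less. That last count was also 0 with a pseudocount of 5 TPM, which gave a DNA replication median of 0.20, and with a mean TPM of at least 5, which tested 35 members. Whether replicate numbers pair the mice is not known. The correlation of deviations was -0.012 over all genes and 0.34 over members, and it cannot decide this, because each genotype gives only 1 difference between its mice. With the replicate number as a block 0 members were lower at an unadjusted limma p of 0.05, with the other member counts and medians as before.

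Leaving out 1 library in turn gave 9 to 19 members below 0, 0 to 4 at 1 or more and 0 to 3 at -1 or less. Without overlap, 9 to 20 members were above and 9 to 14 below. Groups with 1 library overlap less often by construction, and the lone library was assumed to vary like the others. None of these counts has one over all genes in the same setting beside it, so they are not read as results about the members. Medians ranged from 0.0083 to 0.32 (members), -0.11 to 0.013 (further mitosis genes), -0.29 to 0.20 (DREAM, MuvB and FOXM1 list) and 0.26 to 0.31 (DNA replication). Over all genes tested the median ranged from -0.25 to -0.041. Of 284 values for the 26 members named by rule, 257 kept their sign and 27, in 16 genes, did not. The filters, the block and the prior without trend cannot change a log2 fold change, so their signs were fixed in advance and the 257 overstate stability. All 27 changes of sign came from quantile normalization or from a library left out. Quantile normalization turned Mad2l1 (0.028), Cenpe (0.13), Aurkb (0.088), Incenp (0.073) and Kif4 (0.16). With a library left out, signs turned within the ranges -0.10 to 0.26 for Ccna2, -1.33 to 0.37 for Ccnb1, -0.85 to 0.011 for Cdc25b, -0.23 to 0.24 for Bub3, -0.39 to 0.11 for Mad2l1, -0.47 to 0.11 for Cenpa, -0.095 to 0.030 for Cenpe, -0.095 to 0.54 for Ndc80, -0.40 to 1.70 for Spc24, -0.22 to 0.065 for Aurkb, -0.044 to 1.07 for Birc5, -0.27 to 0.020 for Incenp, -0.39 to 0.76 for Cdca8, -0.22 to 0.064 for Kif4, -0.071 to 0.11 for Kif23 and -0.22 to 0.74 for Mki67. The cause was not tested. Overlaps of CHD8 peaks and ATAC peaks with member promoters, and their alternatives, were not run, because the peaks are in mm39 and the promoter windows in GRCm38.p6.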
